A study of Mus musculus with 4 samples.

Results

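The genes of the MHC class II pathway were compared between Acvr2a knockout and wild-type Hepa1-6 cells, a mouse hepatocellular carcinoma line. The 10 genes were Cd74, the class II chains H2-Ab1, H2-Aa and H2-Eb1, the peptide editors H2-DMa, H2-DMb1, H2-DMb2, H2-Oa and H2-Ob, and the activator Ciita. They were picked by symbol from the 54838 genes listed in each file, and all 10 were present. The choice was made from the knockout against wild-type difference, so that difference is described for them without a test. Each group had 2 libraries of total RNA: NC, with Acvr2a wild type, and KO, with Acvr2a knockout, both in Hepa1-6 and with no treatment named. The series describes the KO cells as subclones, and how many clones the KO libraries stand for is not given in the sources used here. Nothing states that the libraries came from separate cultures, so p-values measure only the spread between these libraries.

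Class II molecules are dimers of an alpha and a beta chain that carry peptides from endosomes to the surface for CD4+ T cells. Cd74, the invariant chain, binds new dimers, fills their groove and routes them to endosomes, where the H2-DM dimer swaps its remnant for peptide and the H2-O dimer restrains H2-DM. Ciita is the master coactivator, which professional antigen-presenting cells express constitutively and which most other cells, hepatocytes included, express after interferon-gamma.

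The libraries held between 11597923 and 13910582 counts. Acvr2a, the targeted gene, had 81 and 108 counts in the NC pair and 75 and 97 in the KO pair. Its fitted difference was -0.21 on the log2 scale (edgeR quasi-likelihood, SE 0.20, adjusted p = 0.433), so its RNA level did not separate the groups and the names below follow the labels. Of the 8 hepatocyte and hepatoma markers, Alb, Afp, Apoe, Trf and Hnf4a had between 1433 and 31507 counts, Apoa1 had between 17 and 39, and Ttr and Serpina1a had at most 5. The summed level of these 8 genes was lower in both KO libraries (3080 and 3110 CPM) than in the NC libraries (4210 and 3910 CPM), and Apoe was the largest part of the sum in each library. By edgeR's quasi-likelihood test Afp (-1.21), Apoe (-0.93) and Hnf4a (-1.0) were lower in KO, and Alb (0.41) and Trf (0.54) were higher, in log2 fold change. The part of these shifts in the results below was not tested. Levels are given as CPM, counts scaled to library size after TMM, within a gene, and as TPM, which is also scaled by length, between genes. These are bulk samples, in which more expressing cells and more RNA per cell cannot be told apart.

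Cd74 (ENSMUSG00000024610.14, chromosome 18, 60803848 to 60812652) was the most abundant of the genes per length in every library. Its counts, ordered NC 1, NC 2, KO 1, KO 2 here and below, were 168, 205, 994 and 1163. Both KO libraries lay far above both NC libraries, and the NC libraries were nearly equal at 14.8 CPM each. The NC mean was 14.8 ± 0.0185 CPM and the KO mean 80.8 ± 7.53 CPM (each with its SD, n = 2). The log2 fold change was 2.45 (SE 0.12), or 5.46-fold. Cd74 held 66.1% of the counts of the 10 genes in NC 1 (Wilson 95% interval 60.1% to 71.7%) and 62.1% in NC 2 (56.8% to 67.2%). The share was 79.9% in KO 1 (77.6% to 82.0%) and 77.4% in KO 2 (75.2% to 79.5%), so in both groups most class II pathway reads came from the chaperone and not from the chains. These intervals cover counting error only. The files list 3 coding transcripts of Cd74. Their mean length, weighted by the authors' estimated transcript shares, lay between 1223 and 1233 bases in the 4 libraries. That is close to the 1224 bases of the shortest form in GENCODE M21 and below the 1410 bases of the longest. GENCODE M21 holds a later version of the shortest form than the one counted here.

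**Figure D1:**
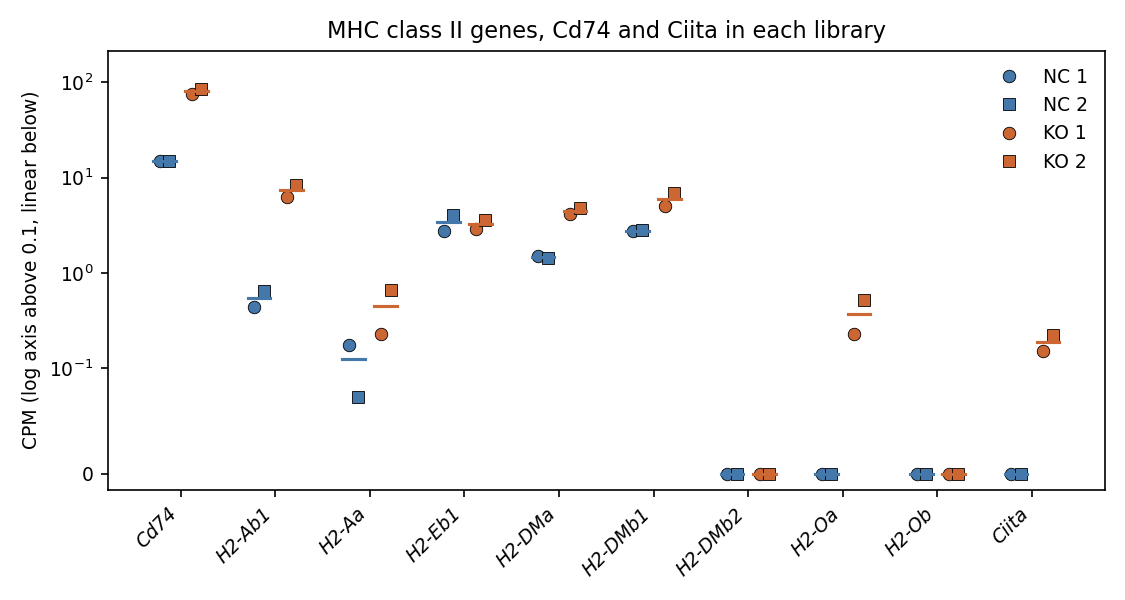
CPM of the 10 genes in each library, on an axis that is logarithmic above 0.1 and linear below it, with a bar at each group mean (n = 2). Cd74, H2-Ab1, H2-DMa and H2-DMb1 lie higher in both KO libraries, H2-Eb1 overlaps between the groups, and H2-DMb2 and H2-Ob are at 0 throughout.

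The beta chain of the classical A molecule, H2-Ab1 (ENSMUSG00000073421.5, chromosome 17, 34257689 to 34269419), differed most between the groups. Its counts were 5, 9, 83 and 113, with no overlap between the groups. The log2 fold change was 3.70 (SE 0.43), the 23rd largest rise among the 12510 genes tested, and it was 4.04 without NC 2 and 3.48 without NC 1. H2-Ab1 was chosen on this contrast and passed the filter on low counts through its KO libraries. Its rank is therefore only a description. Its partner, the alpha chain H2-Aa (chromosome 17, 34282744 to 34287823), had counts of 2, 1, 3 and 9, and so fell under the filter on low counts. Over the groups this was 3 counts against 12, a ratio of 3.78 with an exact 95% counting interval of 1.02 to 20.9.

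Most reads of the A pair came from the beta chain. H2-Aa made up 3.49% of the counts of the pair in KO 1 (Wilson 95% interval 1.19% to 9.76%) and 7.38% in KO 2 (3.93% to 13.4%). In NC the pair held only 7 and 10 counts, and the share of H2-Aa was 28.6% (8.22% to 64.1%) and 10% (1.79% to 40.4%). The intervals of NC 1 and NC 2 overlap those of the KO libraries, and whether the balance differed between the groups was not tested. On the TPM scale H2-Ab1 exceeded H2-Aa 35.7-fold in KO 1 and 21.3-fold in KO 2, and 2.29-fold and 14.4-fold in NC 1 and NC 2.

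In the authors' estimates, the reads of H2-Ab1 were not all given to its coding form. The files list 3 transcripts for it: a coding form of 1211 bases and a pair annotated as retained introns, of 628 and 515 bases. The weighted mean length was 1211 bases in NC 1, where all 5 counts were given to the coding form, but 800 in NC 2, 903 in KO 1 and 767 in KO 2. These lengths put the coding share of the estimated transcripts between 29.6% and 41.0% in NC 2, 47.1% and 55.7% in KO 1, and 23.8% and 36.2% in KO 2. The coding form alone was then between 5.22 and 6.17 TPM in KO 1 and between 4.2 and 6.39 TPM in KO 2. In NC it was 0.48 TPM in NC 1 and between 0.385 and 0.533 TPM in NC 2, so the groups stayed apart when the short forms were set aside. Per length, this still left the coding beta chain above the 0.31 and 0.83 TPM of all H2-Aa forms in the KO libraries.

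H2-Eb1 (chromosome 17, 34305867 to 34316674), the beta chain of the E molecule, was present at a similar level in all libraries. Its counts were 31, 56, 38 and 49. The KO values lay between the NC values, and the means were 3.39 ± 0.931 CPM for NC and 3.26 ± 0.526 CPM for KO (each with its SD, n = 2). The log2 fold change was -0.07 (SE 0.30, 95% interval -0.68 to 0.54). Leaving out 1 library at a time moved it from -0.31 without NC 1 to 0.26 without NC 2. Its alpha partner is listed as H2-Ea-ps (chromosome 17, 34341959 to 34344645), a polymorphic pseudogene in the reference strain C57BL/6, where a deletion removes its promoter. H2-Ea-ps had 0 counts in all 4 libraries, as had the other E beta gene, H2-Eb2; 3 counts over the 4 libraries, the limit that a count of 0 allows, correspond to 0.0578 CPM. H2-Eb1 was thus a beta chain with no alpha chain of its own counted in either group.

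**Figure D2:**
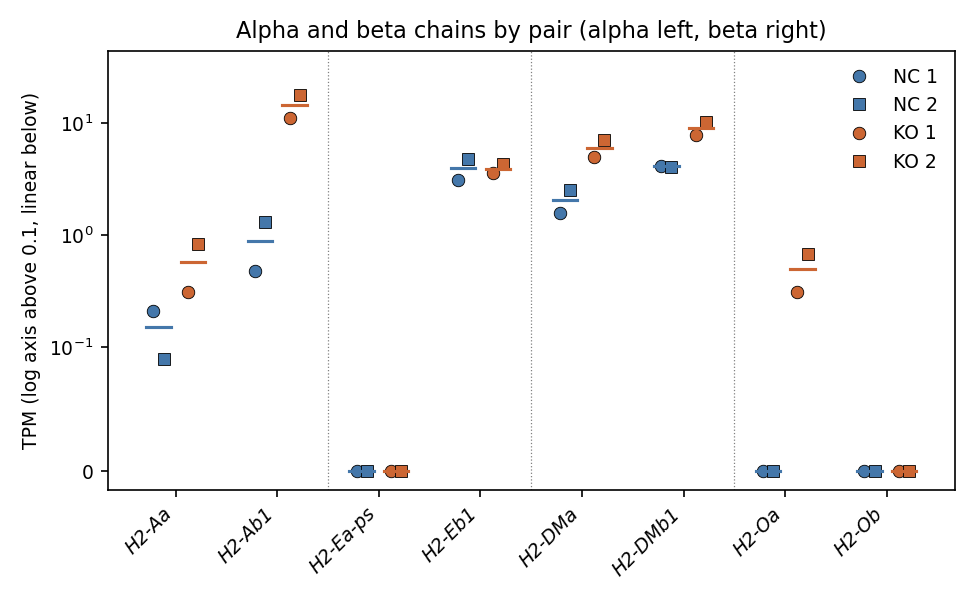
Gene TPM, with noncoding forms included, of each alpha chain (left) and beta chain (right) by pair in each library. The axis is logarithmic above 0.1 and linear below it, with a bar at each group mean (n = 2). H2-DMa and H2-DMb1 lie at similar levels, H2-Ab1 stands 35.7 and 21.3 times above H2-Aa in KO, and H2-Eb1 and H2-Oa face partners at 0.

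The H2-DM dimer was the only pair with both chains above the filter on low counts. H2-DMa (chromosome 17, 34119541 to 34139101) had counts of 17, 20, 55 and 65. Its log2 fold change was 1.61 (SE 0.33), from 1.47 ± 0.0361 to 4.49 ± 0.451 CPM (SD, n = 2). H2-DMb1 (chromosome 17, 34153072 to 34160230) had counts of 31, 39, 66 and 93, a log2 fold change of 1.10 (SE 0.27), from 2.77 ± 0.0633 to 5.95 ± 1.33 CPM (SD, n = 2). Both KO libraries were above both NC libraries for each chain. The beta chain exceeded the alpha chain 2.64-fold and 1.61-fold in TPM in NC 1 and NC 2, and 1.55-fold and 1.44-fold in KO 1 and KO 2. H2-DMa took 35.4% and 33.9% of the pair's counts in NC and 45.5% and 41.1% in KO, with Wilson 95% intervals that overlap (23.1% to 49.6% over NC and 33.8% to 54.3% over KO). For H2-DMb1, the authors' estimates also gave reads to a shorter noncoding transcript. The coding form of H2-DMb1, of 1404 bases, made up 34.4%, 46.8%, 42.3% and 42.7% of the estimated transcripts in NC 1, NC 2, KO 1 and KO 2. For H2-DMa, a retained intron of 649 bases is listed beside a coding form of 1658 bases in GENCODE M21. Its weighted mean length was 1255, 889, 1209 and 1003 bases, between these lengths. The TPM ratios of the pair are thus of whole genes and not of coding forms. In the annotation H2-DMa also overlaps Brd2 on the other strand. However, 0 of the 1744 exon bases of the listed H2-DMa transcripts, taken in their GENCODE M21 versions, lie in Brd2 exons. For the coding form, that version is later than the one counted here.

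The second H2-DM beta gene, H2-DMb2 (chromosome 17, 34143307 to 34151555), had 0 counts in every library although it lies beside H2-DMb1. The main coding transcripts of the 2 genes are 94.4% identical over 1255 aligned bases, and 27.2% of the windows of 50 bases in that of H2-DMb1 also occur in H2-DMb2. Reads from such stretches cannot be told apart, and the counts of both genes are uncertain to that extent. For Cd74, H2-Ab1, H2-Aa, H2-Eb1, H2-DMa, H2-Oa, H2-Ob and Ciita, 0 windows of this length in the main coding transcript occurred in a transcript of another gene.

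The H2-O dimer was incomplete as well. H2-Oa (chromosome 17, 34092340 to 34095234) had counts of 0, 0, 3 and 7. With the NC group set at a floor of 3 counts, the KO level was 3.15-fold higher. That ratio leaves out the counting error of the KO reads. H2-Ob (chromosome 17, 34238903 to 34254414) had 0 counts in all 4 libraries. H2-Oa was therefore the alpha chain of a pair whose beta chain was not detected at this depth. H2-Oa overlaps BC051537 and Ciita overlaps Dexi, each on the other strand, and whether counting used strand is not given in the sources used here.

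Ciita (chromosome 16, 10480059 to 10528418), which is known to work at the promoters of these genes, had counts of 0, 0, 2 and 3. With the NC group set at a floor of 3 counts, the KO level was 1.58-fold higher, again without the counting error of the KO reads. With 2 and 3 counts in KO, whether the level rose is not settled. In TPM it was at 0.05 and 0.04 in KO 1 and KO 2, where Cd74 was at 88.39 and 96.69. The weighted mean lengths in KO equal those of a coding transcript of 3953 bases (KO 1) and the longest one of 6007 bases (KO 2), but with 2 and 3 counts the choice of transcript carries little weight.

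Of the 10 genes, 5 passed the filter on low counts. For 4 of these, Cd74, H2-Ab1, H2-DMa and H2-DMb1, both KO libraries lay above both NC libraries, as for 34.8% of all genes tested; the groups did not overlap in either direction for 69.4%. The genes were chosen on this contrast, so the count is a description and nothing is read from it. The median log2 fold change of the 5 was 1.61, against -0.0037 for all genes tested, and for the same reason this too is only a description. The summed level of all 10 genes was 22.3 and 23.8 CPM for NC and 94.4 and 111.0 CPM for KO.

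The order of the levels also differed between the groups. By mean TPM the order in NC was Cd74 (16.4), H2-DMb1 (4.08), H2-Eb1 (3.93), H2-DMa (2.04), H2-Ab1 (0.89) and H2-Aa (0.15), with H2-DMb1 and H2-Eb1 overlapping between libraries. In KO it was Cd74 (92.5), H2-Ab1 (14.4), H2-DMb1 (8.93), H2-DMa (6.02), H2-Eb1 (3.91), H2-Aa (0.57), H2-Oa (0.495) and Ciita (0.045), with H2-Aa and H2-Oa overlapping. By gene TPM, H2-Ab1 thus stood below the H2-DM chains and H2-Eb1 in NC and above them in KO. Gene TPM includes the noncoding forms of H2-Ab1, H2-DMa and H2-DMb1. The coding form of H2-Ab1 was at the 5.22 to 6.17 TPM (KO 1) and 4.2 to 6.39 TPM (KO 2) given above. That of H2-DMb1 was at 3.28 and 4.33 TPM, and H2-Eb1, with a single listed form, at 3.55 and 4.27 TPM. Coding H2-Ab1 was thus above both in KO 1, and in KO 2 its range held both values. For H2-DMa no coding share was estimated. Cd74 exceeded H2-Ab1 in TPM 33.2-fold and 12.9-fold in NC 1 and NC 2, and 7.98-fold and 5.47-fold in KO 1 and KO 2.

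With predicted and clone-named genes left out, the tested genes whose profile over the 4 libraries came closest to that of H2-Ab1 were Cadm4, Ikzf4, Susd2, Atp1b2 and Rhpn1. The distance, a root mean square over the 4 libraries of log2 CPM centred on each gene's mean, was 0.14, 0.178, 0.205, 0.233 and 0.294. Cadm4, Ikzf4 and Rhpn1 had at most 1 count in an NC library, so their likeness rests on few reads. A small count was added before the log, which draws such genes closer. The fitted log2 fold change of Ikzf4 was 7.14, against 3.70 for H2-Ab1. The other four class II genes above the filter were not among the nearest 5.

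Class II promoters share a module in which an X box, bound by the RFX complex, precedes a Y box, bound by NF-Y, and Ciita docks on the factors bound there. RefSeq promoter windows of 300 bases on GRCm38.p6 (250 bases before the start site and 50 after) were matched to 7 of the 10 genes. Cd74, H2-Ab1 and Ciita have no entry. The windows were searched on both strands for AACNGATG, letters from the X box, and TGATTGG, letters from the Y box, which do not overlap each other, and these letters were chosen after the windows had been read. Of all 32851 promoter windows, 2.32% hold AACNGATG, 7.82% hold TGATTGG and 0.186% hold both. Both were found in H2-Eb1, H2-DMb1 and H2-DMb2, and TGATTGG alone in H2-Aa, H2-Oa and H2-Ob. Only exact matches were counted, so a window without AACNGATG can still hold an X box with other letters. Neither was found in the 2 windows of H2-DMa, which begin at 34122582 and 34125268. Whether these are the start sites of the H2-DMa transcripts counted here was not checked. A module before another start site of the gene, which runs to 34139101, would not have been seen.

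The windows of 4 genes are shown because 3 of them hold the same pair of motifs at different RNA levels, and the fourth is the alpha chain with few reads: H2-Eb1 (chr17:34305617-34305916, plus strand), similar in NC and KO; H2-DMb1 (chr17:34152941-34153240, plus strand), higher in KO; H2-DMb2 (chr17:34144999-34145298, plus strand), at 0; and H2-Aa (chr17:34287774-34288073, minus strand), with few counts. Capitals mark AACNGATG and TGATTGG.
H2-Eb1: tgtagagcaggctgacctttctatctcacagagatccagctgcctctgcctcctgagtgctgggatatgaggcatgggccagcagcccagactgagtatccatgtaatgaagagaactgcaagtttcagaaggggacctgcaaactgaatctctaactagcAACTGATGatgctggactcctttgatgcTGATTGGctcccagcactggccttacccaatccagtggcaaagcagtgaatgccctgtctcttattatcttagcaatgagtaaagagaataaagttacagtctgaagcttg
H2-DMb1: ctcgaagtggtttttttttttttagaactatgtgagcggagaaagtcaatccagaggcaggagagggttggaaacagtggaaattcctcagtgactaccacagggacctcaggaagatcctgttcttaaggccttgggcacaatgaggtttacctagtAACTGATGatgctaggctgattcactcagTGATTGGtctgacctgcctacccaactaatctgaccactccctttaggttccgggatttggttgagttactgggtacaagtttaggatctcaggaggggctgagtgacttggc
H2-DMb2: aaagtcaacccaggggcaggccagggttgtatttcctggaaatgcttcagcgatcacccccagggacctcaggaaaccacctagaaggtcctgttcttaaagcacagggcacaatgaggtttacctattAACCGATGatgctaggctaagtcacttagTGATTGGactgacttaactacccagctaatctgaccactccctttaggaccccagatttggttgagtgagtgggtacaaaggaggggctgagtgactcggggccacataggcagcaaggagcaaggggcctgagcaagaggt
H2-Aa: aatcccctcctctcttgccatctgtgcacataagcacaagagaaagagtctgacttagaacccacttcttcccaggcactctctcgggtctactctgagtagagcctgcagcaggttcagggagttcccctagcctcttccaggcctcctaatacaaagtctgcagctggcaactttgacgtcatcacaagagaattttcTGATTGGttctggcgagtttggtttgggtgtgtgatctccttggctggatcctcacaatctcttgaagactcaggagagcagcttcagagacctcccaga

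In H2-Eb1 the matches began at -89 and -61 from the start site, with 20 bases between them. In H2-DMb1 they began at -92 and -63, with 21 bases between, and in H2-DMb2 at -121 and -92, again with 21 bases between. The windows of H2-DMb1 and H2-DMb2 are 84.2% identical over 247 aligned bases. The same pair of matches in the same order thus stood before a gene that was higher in KO, a gene at a similar level in both groups and a gene with 0 counts. A match is a description of letters and not of a bound site.

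Other genes of the pathway were taken from lists and compared in the same fit, with adjusted p-values from edgeR's quasi-likelihood test over all 12510 genes. Of all genes tested, 37.9% passed 0.05, 19.7% higher and 18.2% lower in KO. All 10 factors that build or serve the promoter module were tested, and 2 were higher and 3 lower in KO, a count of 5 of 10 near that background, with a median log2 fold change of 0.07. Rfx5, the DNA-binding subunit of the RFX complex, was at 17.4 ± 1.16 CPM in the NC and 34.2 ± 6.07 CPM in the KO libraries (SD, n = 2). The rise was 0.97 in log2 units (SE 0.14, adjusted p = 2.73e-06). Its partners in the complex, Rfxank (0.18, 95% interval -0.11 to 0.47) and Rfxap (0.13, 95% interval -0.19 to 0.46), did not pass. The NF-Y subunits moved in both directions, with Nfyb higher (0.48, adjusted p = 0.00441) and Nfya (-0.25, adjusted p = 0.0409) and Nfyc (-0.41, adjusted p = 0.00627) lower. Kat2b, a histone acetyltransferase, was lower (-0.36, adjusted p = 0.0142), and Creb1, Crebbp and Ep300 did not pass. The count of 5 was 3 without NC 1 and 3 without KO 2. The call for Nfyc was lost without KO 2 (-0.23), that for Kat2b without NC 1 or KO 1 (-0.32 each), and that for Nfya without NC 1 (-0.26), NC 2 (-0.23) or KO 2 (-0.20). DESeq2 did not call Nfya (-0.25) or Kat2b (-0.36), scaling by library totals did not call Nfya (-0.22), and the TPM fits called none of the 3 (Nfyc -0.22 on log2(TPM + 1)).

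On the interferon-gamma route to Ciita, 11 of 12 genes were tested, 2 rose and 0 fell, where 19.7% of all genes tested rose, and the median log2 fold change was 0.06. The share that rose is near that background. Prdm1, a repressor of Ciita in plasma cells, rose by 0.50 (SE 0.11, adjusted p = 0.000979), and the receptor chain gene Ifngr1 by 0.33 (adjusted p = 0.0115), a call lost without NC 2 (0.26) or KO 2 (0.18). Ifng itself had 0 counts in all libraries. Irf1, Jak1 and Jak2 did not pass: Irf1, a transcription factor, had a log2 fold change of 0.11 (95% interval -0.08 to 0.31), and the receptor kinase genes Jak1 of 0.06 (-0.13 to 0.24) and Jak2 of 0.22 (0.04 to 0.40, adjusted p = 0.0531).

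Of the 12 genes of peptide processing and class II turnover, 10 were tested, 5 rose and 0 fell, where 19.7% of all genes tested rose and 18.2% fell, with a median log2 fold change of 0.26. Lgmn, the asparaginyl endopeptidase of endosomes, rose by 0.86 (SE 0.09, adjusted p = 6.71e-08), from 58.6 ± 0.718 to 106.0 ± 4.0 CPM (SD, n = 2). The cathepsin genes Ctsh (0.60, adjusted p = 0.000408), Ctsl (0.34, adjusted p = 0.00362) and Ctsb (0.29, adjusted p = 0.0121) rose, and so did Sppl2a (0.31, adjusted p = 0.0151), which encodes the intramembrane protease that clears the last Cd74 fragment. Ctsl and not Ctss is the cathepsin that trims Cd74 in thymic epithelium, and Ctss does so in most professional antigen-presenting cells. Ctss had counts of 1, 2, 2 and 1, and Ctsl between 3055 and 4529. The count of 5 was 3 without NC 2, where Ctsb (0.26) and Sppl2a (0.32) did not pass, and Sppl2a also missed without NC 1 (0.31) or KO 2 (0.18) and with DESeq2 (0.32). In the filtered TPM fits neither passed. March1, a ubiquitin ligase that removes class II from the surface, had counts of 0, 0, 1 and 5.

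Cd74 is also a receptor for the cytokine Mif, with Cd44 as its signalling partner. In this list of 6 genes 3 were tested, and by edgeR's quasi-likelihood test 0 passed, with 0 at an unadjusted p under 0.05 and 0 by DESeq2. Mif had NC and KO means of 443 ± 4.13 and 414 ± 30.9 CPM (SD, n = 2; log2 fold change -0.10, 95% interval -0.29 to 0.09), and Cd44 at 682 ± 17.4 and 751 ± 53.1 CPM (0.14, 95% interval -0.05 to 0.33). Cxcr2 had counts of 0, 0, 4 and 7, a ratio of 3.47 against a floor of 3 counts over the NC group. The counting error of the KO reads is not included.

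**Figure D3:**
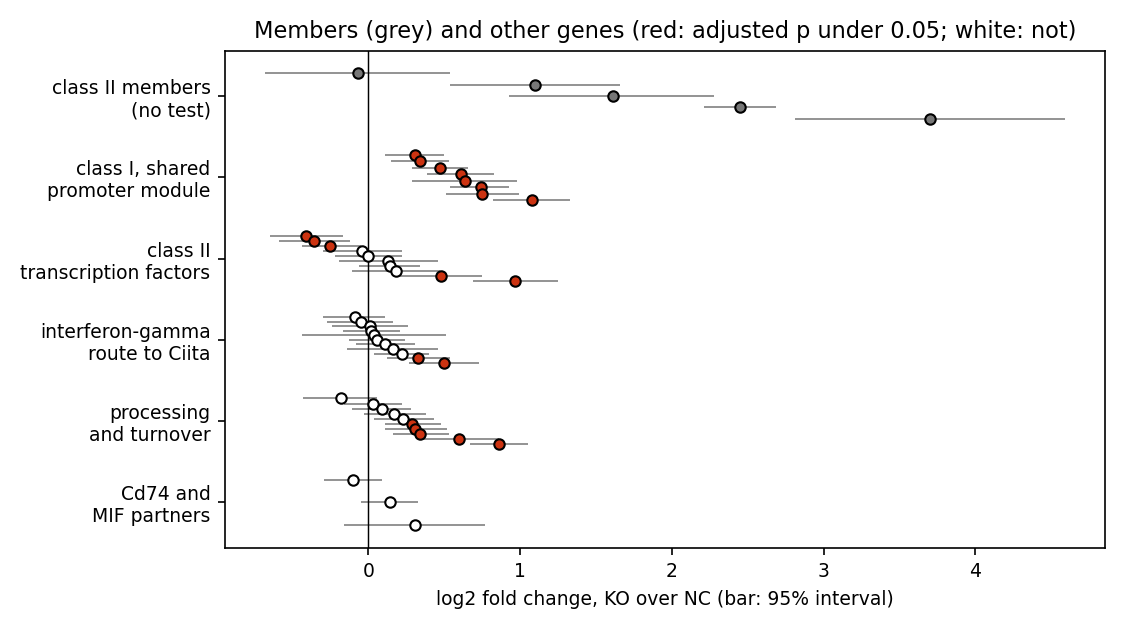
Log2 fold change of KO over NC with its 95% interval for each tested gene, by list; red points passed an adjusted p of 0.05, white points did not, and grey points are the class II genes, shown without a test. The class II genes span -0.07 to 3.70, and in the other lists no gene exceeds the 1.08 of Tap2.

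Class I genes use a related promoter module through Nlrc5, and all 8 tested genes of that list rose, where 19.7% of all genes tested did, by a median log2 fold change of 0.62. They included Nlrc5 (0.75, adjusted p = 1.41e-05), Tap2 (1.08, adjusted p = 1.64e-07) and Tap1 (0.74, adjusted p = 1.30e-06), while H2-K1, the remaining gene, had 1 count in all. Without KO 2, 7 of the 8 passed, and Psmb9 (0.47) did not; 7 passed without NC 1 and 6 in both filtered TPM fits.

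Tap1, Tap2, Psmb8 and Psmb9 lie between the H2-DM and H2-A genes, so the region was examined by position. Of the other genes within 500 kb of the class II genes on chromosome 17 (33592340 to 34816674), 45 were tested, 13 rose and 4 fell, and the median log2 fold change was 0.07. These 17 calls are 37.8% of 45, next to 37.9% of all genes tested. The 5 class I processing genes in the region all rose, and of the other 40 genes 8 rose and 4 fell, with a median log2 fold change of 0.00. H2-Eb1 lies 48.2 kb from the start of H2-Ab1, closer than H2-DMa and H2-DMb1, and had the value nearest 0 of the class II genes tested. Without KO 2, 11 of the 45 passed.

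**Figure D4:**
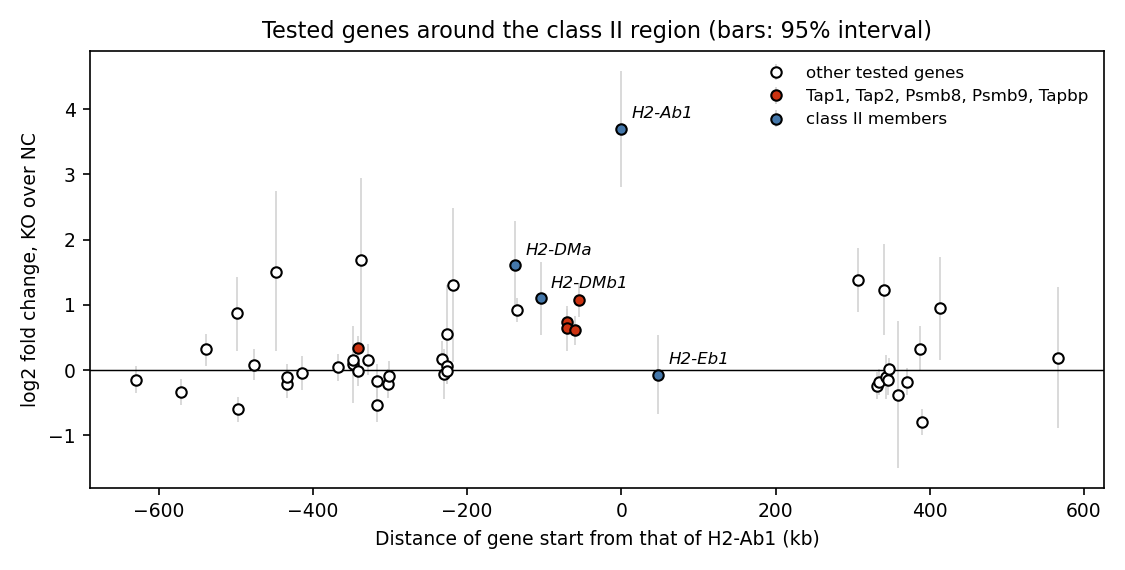
Log2 fold change of KO over NC with its 95% interval for tested genes around the class II region, by distance in kb of the gene's start from that of H2-Ab1. H2-Ab1 (3.70), H2-DMa (1.61) and H2-DMb1 (1.10) stand above most neighbours, and H2-Eb1 (-0.07) lies among them.

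Because class II expression is the mark of professional antigen-presenting cells, 16 markers of macrophages, dendritic cells and B cells were read in the same libraries. Their summed level was 2.81 and 4.04 CPM for NC and 5.16 and 5.18 CPM for KO, and Csf1r, with counts of 18, 37, 36 and 28, was the most counted of them. Without Csf1r the summed counts were 14, 19, 32 and 42, so the sum of the other markers was also higher in both KO libraries. By gene, Itgam, Cd80 and Ptprc had more counts in both KO libraries. Cd79a (3, 0, 1 and 6) and Fcer1g (0, 3, 0 and 6) overlapped between the groups, and Adgre1 and Itgax had 1 count each, in NC 1. The part of the markers in the class II differences was not tested. Itgam had counts of 2, 4, 6 and 10. Tyrobp, Ms4a1, Xcr1 and Cd86 had 0 counts in all 4 libraries, Laptm5 and Flt3 had 1 count in all, and Ptprc, which marks every leukocyte, had 0, 1, 2 and 2. Cd80 had counts of 4, 5, 10 and 10, and Lyz2 of 3, 6, 13 and 6. The summed marker level was below that of H2-Ab1 alone in both KO libraries (6.30 and 8.37 CPM). It was above that of H2-Ab1 in both NC libraries (0.44 and 0.65 CPM). CPM is not scaled by length, and which cells the class II reads came from was not tested.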

How the data were processed

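Total RNA of 2 NC and 2 KO samples was extracted with TRIzol, treated with DNase and made into directional libraries, per the labels' protocols. STAR, RSEM, DESeq2 and GRCm38 are named, without roles, per the submitters' processing notes. The authors' deposited expected counts are estimated reads per gene without scaling, per the file headers, and the deposited TPM values are scaled by estimated length and depth. Expected counts were rounded. Genes passing filterByExpr (12510) entered edgeR's quasi-likelihood test (edgeR 4.0.16, R 4.3.3, TMM, group as the only term), with Benjamini-Hochberg adjusted p under 0.05 over all of them. limma 3.58.1 on log2(TPM + 1) or log2(TPM + 0.1) and DESeq2 1.42.0 were alternatives. The code was tested on simulated data. Coordinates and transcripts come from GENCODE M21 (GRCm38), matched by gene ID without version.

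The 10 genes and the lists were chosen with earlier results of these data known. Named genes are the 10, Acvr2a, H2-Ea-ps, H2-Eb2, up to 6 genes per list with the lowest p past 0.05, and the 5 genes nearest H2-Ab1; other genes were named after their values were seen. The annotation release, aligner versions and strand setting are not given in the sources used here. With 2 libraries per group the SD is poorly known. Some genes of the lists are counted but not reported here by name.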

Additional observations from a re-analysis of the deposited data

How the results depend on the processing

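The log2 fold changes of Cd74 (2.35 to 2.54), H2-Ab1 (3.03 to 4.04), H2-DMa (1.21 to 1.71) and H2-DMb1 (0.85 to 1.31) kept their sign under each alternative run, and that of H2-Eb1 did not (-0.31 to 0.26). The median of the 5 tested class II genes was 1.21 on log2(TPM + 1), with and without a filter, and 1.5 to 1.71 when 1 library was left out. The whole-transcriptome count of 4741 became 2158 on log2(TPM + 1) and 2099 on log2(TPM + 0.1), with 68.0% of each higher against 51.9%, and 3586 to 4472 with 1 library left out; the cause was not tested. On log2(TPM + 1) without a filter limma called 0 genes in total and in each list, with 4506 at an unadjusted p under 0.05. The promoter factors had 3 calls with DESeq2, 2 in both filtered TPM fits and 3 to 4 with 1 library left out. The processing genes had 3 in both filtered TPM fits and 3 to 5 with 1 library left out, the interferon-gamma route 1 to 2, the class I genes 7 to 8 and the Mif list 0. The region had 10 calls in both filtered TPM fits and 11 to 16 with 1 library left out. Without a filter on low counts 1 gene of the Mif list passed. With the replicate number as a block, 5006 genes passed and the counts of the lists stayed within 1.5 times; nothing says that equal numbers pair the samples, and their deviations correlated at -0.0116. H2-Ab1 over H2-Aa was 5.93 in NC and 25.2 in KO by summed TPM, and 4.34 and 15.2 by counts per base of the full coding transcript, a setting chosen after seeing the data. Depth limits H2-Aa, H2-Oa and Ciita, with at most 12 counts per group, and H2-DMb2 and H2-Ob, with 0.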
